A study of Mus musculus with 13 samples.

Results

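The membrane transporter genes described here encode carriers of amino acids, sugars, monocarboxylates and organic anions in mouse macrophages. They were chosen by symbol: protein-coding genes of the solute carrier families Slc1, Slc2, Slc6, Slc7, Slc16, Slc38 and Slc43 and of the organic anion transporter family Slco, leaving out Slc2a1 and Slc7a2. Of 96 such genes, 70 had at least 1 region of the deposited table over the gene body or, as the nearest protein-coding gene, within 100 kb of it, and 26 had none. The 70 genes held 199 of the 40691 regions and were 70 of the 14977 protein-coding genes with a region. The pattern also took in Slc7a6os, which lies on the opposite strand beside Slc7a6 and encodes no transporter.

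The libraries measured H3K27ac, a histone mark (acetylated lysine 27 of H3) found at promoters and enhancers in use, by chromatin immunoprecipitation with antibody Abcam ab4729 followed by sequencing. Bone marrow-derived macrophages were grown from marrow precursors for 5 days in medium conditioned with M-CSF. All groups shared the genotype IL10-/-RAG2-/- on strain 129S6/SvEvTac, so that neither IL-10 made by the macrophages nor mature lymphocytes were present. There were 4 groups of 3 libraries: untreated cells, cells given the bacterial lipopolysaccharide LPS (1 ng/mL for 195 min), cells given LPS with IL-10 (1 ng/mL) throughout the 195 min, here continuous IL-10, and cells given 195 min of LPS with IL-10 for only the final 30 min, here late IL-10. Per the labels the libraries came from 3 independent macrophage pools, and the age of the animals is not given there. The mark at a gene was taken as the sum of the deposited values over its regions, and it is a measure of chromatin, not of RNA or of transport.

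Solute carriers are the main route by which cells take up and release small molecules that do not cross membranes on their own. The Slc1, Slc6, Slc7, Slc38 and Slc43 families carry mostly amino acids, the Slc2 family sugars and related polyols or urate, the Slc16 family lactate, pyruvate and other monocarboxylates as well as some amino acids, and the Slco family steroid conjugates, prostaglandins, thyroid hormones and drugs. Some act as exchangers: the Slc7a11 protein brings cystine into the cell against glutamate and so feeds glutathione synthesis. Macrophages stimulated with LPS are known to shift toward glycolysis and lactate release and to raise cystine uptake, while IL-10 is an anti-inflammatory cytokine that signals through STAT3.

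Promoter sequences are shown for 4 members, because in each the annotated start lay inside a region whose value changed with LPS and the gene itself was called. Of the 9 called genes with such a region, these are the 2 with the largest rise and the 2 with the largest fall, although genes without such a region changed more than Slc7a11 and Slc6a19. They are the 250 bases before the start on the minus strand, from RefSeq on GRCm38.p6, the patch release of mm10. RefSeq promoter entries were matched for 51 of the 70 members. Capitals mark exact matches on either strand to 6 motifs: TGATGNAA (amino acid response element), TGACNNNGC (antioxidant response element), TGANTCA (AP-1), TTCNNNGAA (STAT), GAGGAA (PU.1 core) and the interferon-stimulated response element. The promoters of Slc6a20a (chromosome 9 from 123678833 to 123679082) and Slc7a11 (chromosome 3 from 50443614 to 50443863) lay in regions that were higher with LPS, and those of Slco2b1 (chromosome 7 from 99711341 to 99711590) and Slc6a19 (chromosome 13 from 73692637 to 73692886) in regions that were lower.
Slc6a20a: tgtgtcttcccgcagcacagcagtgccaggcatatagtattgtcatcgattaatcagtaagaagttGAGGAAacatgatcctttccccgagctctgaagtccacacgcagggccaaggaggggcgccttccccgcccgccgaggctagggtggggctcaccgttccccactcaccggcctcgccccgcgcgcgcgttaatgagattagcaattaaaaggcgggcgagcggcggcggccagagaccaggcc
Slc7a11: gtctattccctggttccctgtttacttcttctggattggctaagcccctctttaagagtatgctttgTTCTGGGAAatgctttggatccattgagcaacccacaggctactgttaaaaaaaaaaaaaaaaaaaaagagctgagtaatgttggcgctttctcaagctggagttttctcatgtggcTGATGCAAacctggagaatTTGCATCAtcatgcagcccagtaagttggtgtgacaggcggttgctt
Slco2b1: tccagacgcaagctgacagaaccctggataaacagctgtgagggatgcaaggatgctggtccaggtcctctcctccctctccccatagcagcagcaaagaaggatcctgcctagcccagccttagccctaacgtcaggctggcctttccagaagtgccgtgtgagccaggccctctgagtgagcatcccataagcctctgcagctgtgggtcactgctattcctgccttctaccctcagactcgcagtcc
Slc6a19: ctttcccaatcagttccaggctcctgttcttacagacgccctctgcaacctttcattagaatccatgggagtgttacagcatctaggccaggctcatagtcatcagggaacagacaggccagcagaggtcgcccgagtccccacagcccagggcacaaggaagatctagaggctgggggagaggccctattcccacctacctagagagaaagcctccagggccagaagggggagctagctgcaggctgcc

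The Slc7a11 promoter held the amino acid response element letters on both strands, TGATGCAA from 66 to 59 bases and TTGCATCA from 47 to 40 bases before the start. It also held the STAT-type letters TTCTGGGAA from 183 to 175 bases before the start. The Slc6a20a promoter held 1 PU.1 core, GAGGAA, from 184 to 179 bases before the start. None of the 6 motifs was found in these windows of Slco2b1 and Slc6a19. Over all 32851 promoter entries of this length, 3.45% held TGATGNAA, 7.02% TTCNNNGAA, 23.3% GAGGAA, 10.2% TGACNNNGC, 6.75% TGANTCA and 2.98% the interferon-stimulated response element. Among the 51 members with an entry, 4 held TGATGNAA, 3 TTCNNNGAA, 10 GAGGAA, 9 TGACNNNGC, 6 TGANTCA and 1 the interferon-stimulated response element. Only the first entry of each member was counted, whereas a gene can have several of the 32851 entries, so the units differ. A match describes the letters in the window and not binding there.

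Each deposited value was a whole number of reads times 1 factor per library, and no value was below 1 read. Reads recovered per library ranged from 5149730 to 26922552, and replicate 3 had the most in each group. Between 19.7% and 29.9% of a library's regions lay at exactly 1 read. In the library with the most reads, untreated replicate 3, it was 25.5%. A region at that floor is not shown to lack H3K27ac, and folds against it describe the deposited values. A region value equal to its library's factor, which ranged from 0.419 to 1.97, is 1 read. Fitted differences that include such values depend on the floor. All 4 LPS response genes checked, Tnf, Il1b, Cxcl10 and Ptgs2, were higher with LPS. All 9 macrophage markers had regions, with a summed value of 38334 to 69612 over the libraries, and 2 were higher and 2 lower with LPS. Markers of other cells were present at lower sums: 5 of 6 T cell markers (396 to 1192, with Cd3e at the floor in untreated cells), 3 of 4 B cell markers (1552 to 3246), 4 of 5 neutrophil markers (663 to 2317, with Ly6g at the floor in all libraries), 4 of 4 dendritic cell markers (2894 to 9685), 4 of 4 fibroblast markers (6095 to 17789) and 2 of 4 erythroid and mast cell markers (3.36 to 309.8). These lists hold fewer genes than the macrophage list, so the sums do not compare levels per marker. With LPS, 3 of 5 tested T cell markers were higher, and of the neutrophil, dendritic cell and fibroblast markers 1 each was higher and 1, 2 and 1 were lower, while the mast cell marker Cpa3 fell. Of all genes tested, 14.2% were higher and 13.3% lower with LPS. Cpa3 and the neutrophil marker Elane, which also fell with LPS (-6.55), were both higher with continuous IL-10 (4.91 for Elane) and with late IL-10 (5.02) than with LPS alone. The mean value of Cpa3 was 45.8 untreated, at the floor with LPS, 25.7 with continuous and 44.7 with late IL-10. The dendritic cell marker Zbtb46 was higher with LPS (1.32) and lower with continuous IL-10 than with LPS (-1.52). Cd8a, Pax5, Mpo, Gata1 and Hbb-bt had no region. The part of other cells in the transporter results was not tested, and fewer cells of a type and less H3K27ac per cell cannot be told apart in bulk samples.

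Of the 70 members, 59 passed the filter on low values and were tested at gene level (Slc16a14, Slc1a7, Slc2a12, Slc2a7, Slc38a3, Slc6a11, Slc6a15, Slc7a4, Slco1a6, Slco2a1 and Slco4c1 did not), and 174 of the 199 regions were tested. A gene or region was called where the Benjamini-Hochberg adjusted p of limma, taken over all genes or regions of the series, was under 0.05. Differences are given on the log2(value + 1) scale, with 3 libraries per group throughout. With LPS, 12 transporter genes were higher than untreated (20.3% of 59, where 14.2% of all genes tested were higher) and 10 were lower (16.9%, where 13.3% of all genes were lower). The median difference was -0.02 over the members and -0.11 over all genes. Among regions, 39 were higher (22.4% of 174, beside 16.5% of all regions) and 37 lower (21.3%, beside 17.9%). In all, 39 of the 70 members (55.7%) had a region called with LPS, beside 44.9% of all genes with a region, at 2.50 and 2.49 tested regions per gene. For 12 of them the gene's sum was tested and not called, and for 5 more it was not tested.

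Whether these shares differ from the background was not tested. Within most families members went both ways. Of 12 tested Slc16 genes, 3 were higher and 3 lower. The Slc6 genes gave 3 and 1 of 12, the Slc7 genes 1 and 3 of 10, the Slc2 genes 3 and 2 of 6, and the Slco genes 1 and 1 of 5, while 1 of 7 Slc38 genes was higher. Beside these family counts stand 14.2% higher and 13.3% lower of all genes tested. With the replicate number as a block the counts over all members were 17 higher and 17 lower, and without LPS replicate 3 the count of lower genes was 18. Shares over all genes or regions were not computed under such alternative settings. Their counts, here and below, therefore cannot be set against a background.

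**Figure D1:**
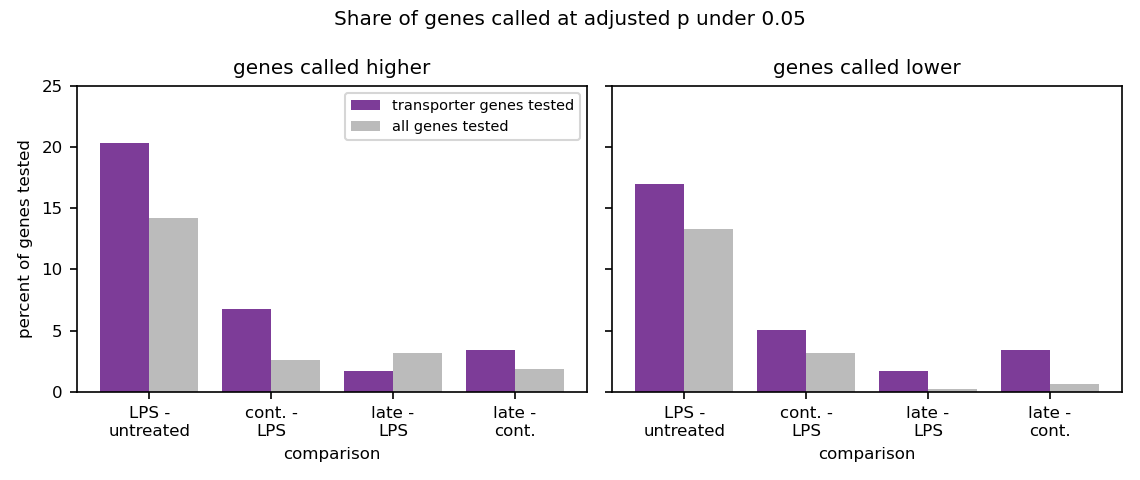
Share of features called in each comparison and direction, in percent. Bars give the share among the tested transporter genes beside the share among all genes tested, and the tallest transporter bar is the 20.3% higher with LPS.

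**Figure D2:**
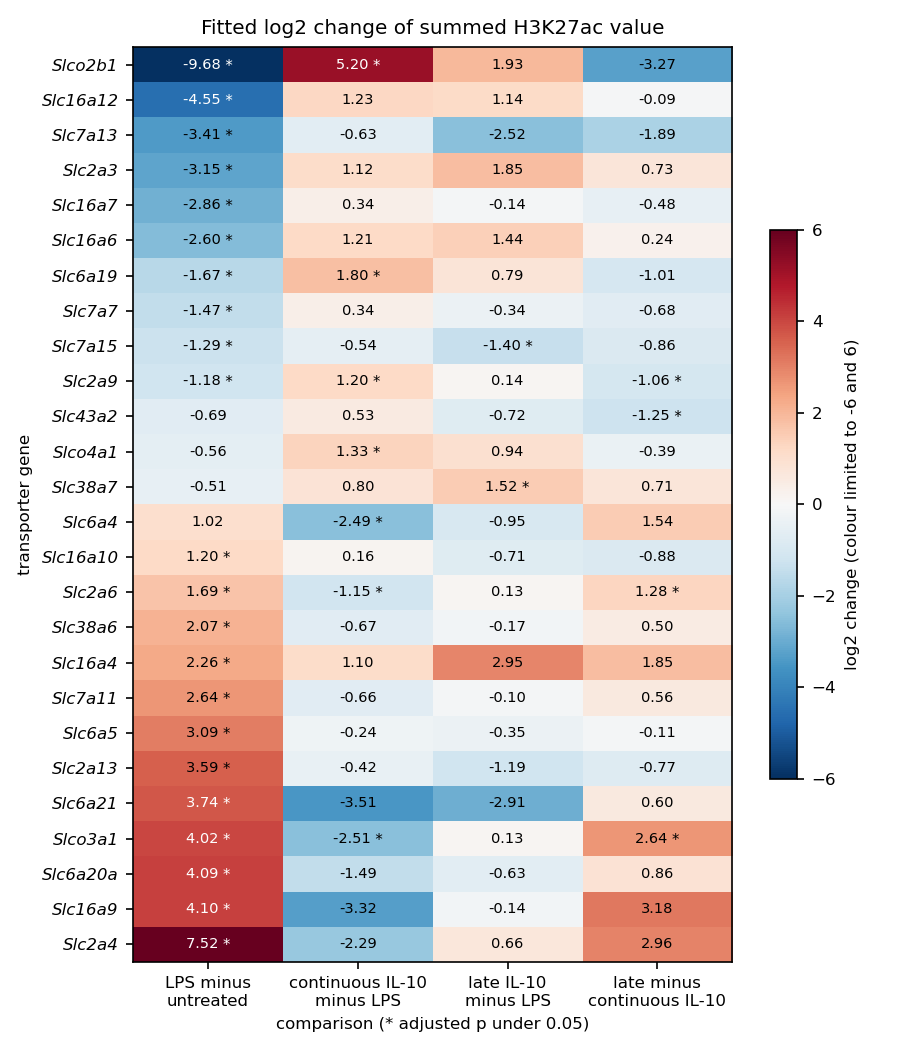
Fitted log2 differences of the summed H3K27ac value for the 26 transporter genes called in at least 1 of 4 comparisons, with genes in rows, comparisons in columns and colour limited to -6 and 6. Asterisks mark a limma adjusted p under 0.05: most stand in the LPS column, and Slc2a4 (7.52) and Slco2b1 (-9.68) lie at its ends, both fitted against a group at the floor.

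Among the amino acid carriers, Slc7a11, the cystine/glutamate exchanger, was higher with LPS. Its summed value was 1494, 1875 and 704 in untreated replicates 1, 2 and 3 and 11388, 14363 and 2944 with LPS. All 3 LPS libraries stood above all 3 untreated ones, and in both groups replicate 3 was the lowest. The log2 difference was 2.64 (SE 0.63, limma adjusted p = 0.00708), and the call held with each of the 6 libraries left out (adjusted p up to 0.0384). The gene had 14 regions, of which 13 were tested, and 7 of these were higher with LPS. The region that holds the promoter printed above (chromosome 3, 50429834 to 50450382) read 423, 541 and 222 untreated and 3914, 5239.7 and 1386 with LPS, with a log2 difference of 3.04 (SE 0.54, limma adjusted p = 0.000803). The 40027 bp region over the gene body (chromosome 3, 50379764 to 50419790) differed by 2.35 (SE 0.71, limma adjusted p = 0.0208), a call that ended without some of the libraries (adjusted p up to 0.0932). Of the regions outside the gene, that at chromosome 3, 50546851 to 50554921, 47764 bp away, lay at the floor in untreated cells and was at least 134-fold higher with LPS.

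Slc6a20a, which encodes a proline transporter, was also higher with LPS. Its sum was 38.2, 31.5 and 16.7 untreated and 431, 618 and 415 with LPS, with no overlap, and the log2 difference was 4.09 (SE 0.49, limma adjusted p = 6.97e-05). Both of its tested regions were higher, among them the one that holds its promoter (chromosome 9, 123677538 to 123687297), by 3.93 (SE 0.50, limma adjusted p = 7.97e-05). Its paralog Slc6a20b was not called with LPS, and reads of such close copies may be hard to place. Slc6a5, the neuronal glycine transporter gene, read 21.9, 24.0 and 31.0 untreated and 264, 266 and 158 with LPS, a difference of 3.09 (SE 0.45, limma adjusted p = 0.000304). Nearly all of that sum came from a region 18378 bp outside the gene (chromosome 7, 49883745 to 49888606), where the LPS mean was 227 and the untreated mean 15.0. Slc6a21 was higher by 3.74 (SE 1.30, limma adjusted p = 0.0473) at low values, 0.707, 1.26 and 33.9 untreated and 39.4, 62.2 and 126 with LPS. Its call ended without untreated replicate 1 or 2 (adjusted p up to 0.181) and in edgeR (adjusted p = 0.0778).

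Slc38a6, of the family that includes the small neutral amino acid carriers, rose in all libraries with LPS. It read 1088, 1090.4 and 1214 untreated and 5838, 6727 and 2731 with LPS, and the log2 difference was 2.07 (SE 0.40, limma adjusted p = 0.00182). Of its 5 tested regions 4 were higher. The region 59552 bp outside the gene (chromosome 12, 73421550 to 73430290) read 311, 341 and 256 with LPS and was at the floor in the untreated libraries, so that it was at least 127-fold higher. The region at its annotated start, shared with Trmt5, was higher by 1.80 (SE 0.41, limma adjusted p = 0.00426). Slc16a10, an aromatic amino acid transporter gene of the monocarboxylate family, read 4032, 4770.2 and 5329 untreated and 9651, 15067 and 8506 with LPS. It was 1.20 higher (SE 0.26, limma adjusted p = 0.00378), the smallest difference among the 12 higher genes and one with no overlap between the groups. Its largest region, 57604 bp over the gene body (chromosome 10, 40063985 to 40121588), read 2082, 2713 and 3206 untreated and 6684, 10733 and 5745 with LPS (limma adjusted p = 0.00156).

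The amino acid carrier genes that fell with LPS were Slc7a7, Slc7a13, Slc7a15 and Slc6a19. Slc7a7, which exchanges basic for neutral amino acids, read 3315, 3734 and 3136 untreated and 1035, 1312 and 1343 with LPS, and it fell by 1.47 (SE 0.24, limma adjusted p = 0.000558). The region over its gene body at chromosome 14, 54375662 to 54388769 read 701, 529 and 403 untreated and 1.97, 1.68 and 30.6 with LPS, a fall of 6.40 (SE 0.93, limma adjusted p = 0.000211). LPS replicates 1 and 2 were at 1 read there, so the size of this fall depends on the floor. The region at its start fell less, by 1.23 (SE 0.25, limma adjusted p = 0.00185). Slc7a13, a gene for an acidic amino acid carrier, read 7454, 10104 and 6023 untreated and 761, 1037 and 481 with LPS, a fall of 3.41 (SE 0.78, limma adjusted p = 0.00562). Nearly all of its sum came from a 70409 bp region shared with Atp6v0d2 (chromosome 4, 19834564 to 19904972), so the value cannot be assigned to Slc7a13 alone. Of its own regions, that at chromosome 4, 19826041 to 19831374 was at least 23.7-fold lower with LPS, where all libraries were at the floor.

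Slc7a15 read 3862, 2659.9 and 4029 untreated and 1407, 1497 and 1335 with LPS, and fell by 1.29 (SE 0.23, limma adjusted p = 0.00101). Its main region (chromosome 12, 8495936 to 8529732) is shared with Rhob. Slc6a19, a neutral amino acid transporter gene best known from gut and kidney, read 515, 495 and 659 untreated and 189, 124 and 221 with LPS, a fall of 1.67 (SE 0.33, limma adjusted p = 0.00228). Both of its tested regions fell, the one at its printed promoter (chromosome 13, 73691923 to 73695855) by 3.15 (SE 0.88, limma adjusted p = 0.0137). None of these 4 calls was lost when any 1 of the 6 libraries was left out.

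Several amino acid carriers well known from macrophages and other immune cells were not called at gene level with LPS. Slc7a5, the large neutral amino acid exchanger, read 247, 58.0 and 194 untreated and 35.4, 42.0 and 195 with LPS (difference -1.07, 95% interval -2.84 to 0.69). Slc1a5, the glutamine carrier, differed by -1.05 (95% interval -2.31 to 0.22; limma adjusted p = 0.0193 without LPS replicate 3), and Slc1a3, a glutamate carrier, by -2.07 (95% interval -4.52 to 0.38). The taurine carrier Slc6a6 differed by -0.39 (95% interval -0.88 to 0.09) and Slc38a2, a small neutral amino acid carrier, by -0.38 (95% interval -1.04 to 0.28). These intervals are wide, and they include both 0 and differences as large as those of called genes such as Slc7a15, except at Slc6a6 and Slc38a2, whose intervals are narrower. At region level, 1 of 3 tested regions of Slc7a5 and 1 of 4 of Slc6a6 were lower with LPS, beside 17.9% of all regions.

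Other carriers were not called but passed with the replicate block, and some of them under other settings too. Slc43a2, a large neutral amino acid carrier, was -0.69 different (limma adjusted p = 0.102, or 0.00482 with the block). It also passed with median centring (0.0469) and without LPS replicate 3 (0.0119). Slc7a8, a neutral amino acid exchanger, read 3093, 2739 and 3182 untreated and 5090.2, 5248 and 3606 with LPS and differed by 0.61 (limma adjusted p = 0.0767, or 0.0173 with the block and 0.0245 without LPS replicate 3). Its start region, shared with Rnf212b, was higher by 1.22 (SE 0.32, limma adjusted p = 0.0101). Slc1a2, a glutamate carrier, read 3772, 3391 and 2309 untreated and 8953, 16899 and 2272 with LPS. It differed by 1.18 (limma adjusted p = 0.29, or 0.0193 with the block), and LPS replicate 3 lay below the untreated range.

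At region level Slc38a2 and Slc38a1, both carriers of small neutral amino acids such as glutamine, had 3 regions each that fell with LPS and none that rose. The strongest of these by size, 76261 bp from Slc38a2 (chromosome 15, 96775989 to 96778687), was at least 8.60-fold lower. The most abundant, 55863 bp from the gene (chromosome 15, 96755591 to 96759889), read 249.6, 247 and 282 untreated and 39.4, 25.2 and 34.8 with LPS. Regions called in both directions were found at Slc1a2, Slc38a11, Slco3a1 and Slco6d1, so the sums of these 4 genes join regions called in opposite directions. At Slco6d1 and Slc1a2 the calls in both directions were lost without some single libraries (limma adjusted p up to 0.151 and 0.125). The same held for the lower region of Slc38a11 (limma adjusted p up to 0.0748). The share of all genes with regions called both ways was not computed.

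Among the sugar carriers, Slc2a4, Slc2a13 and Slc2a6 were higher and Slc2a3 and Slc2a9 lower with LPS. Slc2a6, the gene of GLUT6, read 380.3, 563 and 552 untreated and 1310.4, 1719 and 1775 with LPS. The groups did not overlap and the log2 difference was 1.69 (SE 0.28, limma adjusted p = 0.000658), but its single region (chromosome 2, 27018852 to 27033557) also covers part of Cacfd1. Slc2a13, a proton-coupled inositol carrier gene, read 6.36, 18.9 and 20.9 untreated and 264, 217 and 96.0 with LPS (3.59, SE 0.68, limma adjusted p = 0.00171), nearly all of it from a region 40783 bp outside the gene. Slc2a4, the insulin-responsive glucose carrier gene, had 1 region, of 10736 bp and 1643 bp outside the gene (chromosome 11, 69949859 to 69960594). It was at the floor in all untreated libraries, read 488, 429 and 159 with LPS, and was at least 150.2-fold higher (limma adjusted p = 2.6e-05). A region outside a gene was assigned by distance only, and the gene it acts on was not tested.

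Slc2a3, the high-affinity glucose carrier GLUT3, fell with LPS. It read 310.3, 267 and 426 untreated and 37.4, 8.40 and 140.0 with LPS, a fall of 3.15 (SE 0.85, limma adjusted p = 0.0141). Without LPS replicate 2 the difference was -2.16 and no longer called (limma adjusted p = 0.0612). All 5 regions of the gene were at 1 read in that library, so the size of the fall depends on the floor. Slc2a9, which carries urate, read 969.9, 951 and 1334 untreated and 451, 440.3 and 527 with LPS. Its fall of 1.18 (SE 0.25, limma adjusted p = 0.00327) came with a larger one, of 2.12 (SE 0.37, limma adjusted p = 0.000714), at 1 of its 4 tested regions (chromosome 5, 38499559 to 38511044). Slc2a8, an intracellular sugar carrier, read 115, 139 and 329 untreated and 1.97, 1.68 and 139 with LPS. LPS replicates 1 and 2 were at 1 read and replicate 3 lay within the untreated range, and the difference of -4.08 was not called (limma adjusted p = 0.0887). It passed with the block (0.00118) and without LPS replicate 3 (-5.96, adjusted p = 0.0063).

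**Figure D3:**
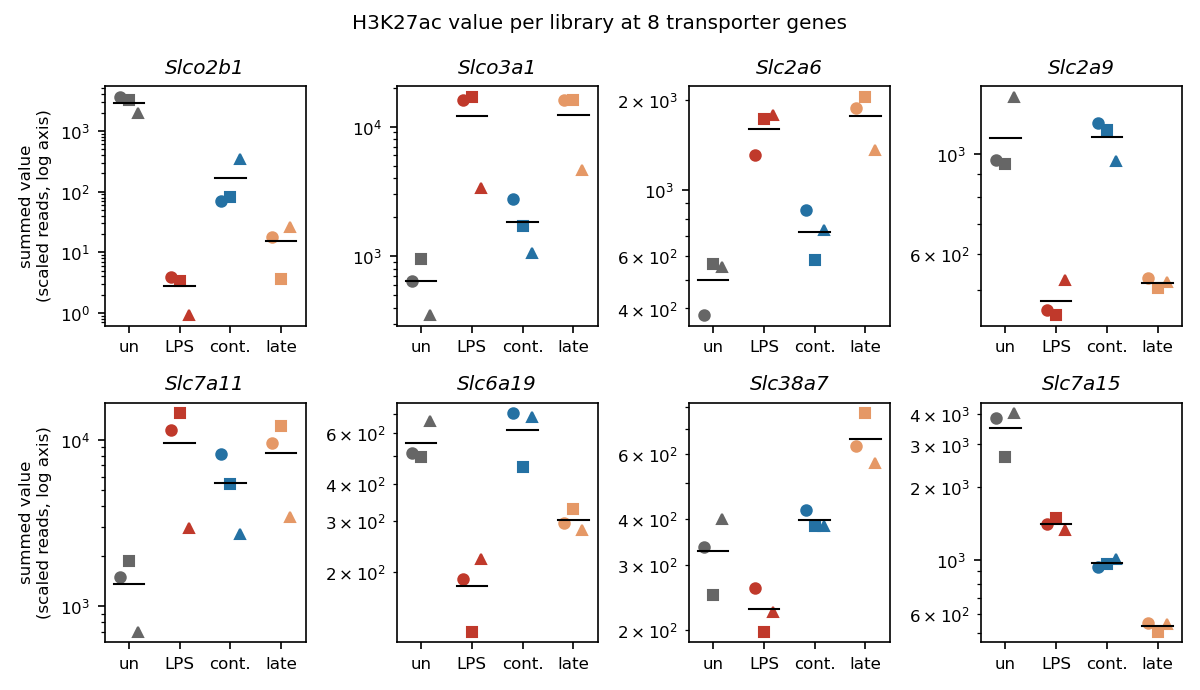
Summed H3K27ac value (scaled reads, log axis) at 8 transporter genes in each library, by group. Circles, squares and triangles are replicates 1, 2 and 3 and the black line is the group mean: the untreated Slco2b1 libraries sit between 1967 and 3634 and no LPS library is above 3.94, while for Slc38a7 all late IL-10 libraries lie above the others.

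In the monocarboxylate family the strongest fall with LPS among genes with neither group as a whole at the floor was at Slc16a12, a creatine carrier gene. It read 237, 329 and 192 untreated and 3.94, 8.40 and 24.6 with LPS (-4.55, SE 1.09, limma adjusted p = 0.00753). LPS replicate 1 was at 1 read in both of its regions, so the size of this fall depends on the floor. Slc16a7, the gene of the pyruvate and lactate carrier MCT2, read 4136, 4579.8 and 2623 untreated and 334, 583 and 663 with LPS, a fall of 2.86 (SE 0.36, limma adjusted p = 0.000109). Of its 5 tested regions 4 fell, and the 23789 bp region at chromosome 10, 125312877 to 125336665 went from 1729.9, 2253 and 767 untreated to the floor in all LPS libraries, at least 385-fold lower (limma adjusted p = 3.25e-06). Slc16a6 read 1609, 1634 and 1859 untreated and 207, 259 and 409 with LPS, a fall of 2.60 (SE 0.44, limma adjusted p = 0.000783) in a region shared with Arsg.

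The family's other higher genes, Slc16a9 and Slc16a4, were at low values. Slc16a9, a gene linked to carnitine transport, read 4.95, 1.26 and 13.4 untreated and 82.6, 123 and 94.1 with LPS (4.10, SE 1.02, limma adjusted p = 0.00905) in 1 region 1063 bp outside the gene. Slc16a4 read 22.6, 6.30 and 1.67 untreated and 45.3, 31.9 and 32.5 with LPS, and its difference of 2.26 (SE 0.75, limma adjusted p = 0.0393) was lost without any 1 of 4 libraries, untreated replicates 2 and 3 and LPS replicates 1 and 2 (adjusted p up to 0.116), with a pseudocount of 10 (0.0613), with median centring (0.0529) and in edgeR (0.113). Of the lactate carriers, Slc16a3 (MCT4) read 404, 329 and 1088 untreated and 569, 1060.4 and 1825 with LPS. The groups overlapped, and the difference of 0.97 was not called (limma adjusted p = 0.139). It passed with the block (0.0162), with median centring (0.021), in edgeR (0.0177) and without untreated replicate 3 (0.0201), and its start region was called higher by 1.46 (SE 0.47, limma adjusted p = 0.028; up to 0.118 with 1 library left out). Slc16a1 (MCT1) differed by 0.67 (95% interval -0.25 to 1.59) and was not called, while a region 11445 bp outside it (chromosome 3, 104669907 to 104673335) went from 117, 79.4 and 78.3 to 1.97, 1.68 and 2.32, a fall of 4.93 (SE 0.86, limma adjusted p = 0.000713). In that region LPS replicates 1 and 2 were at 1 read, so the size of the fall depends on the floor.

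The organic anion transporters Slco2b1 and Slco3a1 showed opposite patterns. Slco2b1, whose product carries steroid conjugates and many drugs, read 3634, 3172 and 1967 untreated and 3.94, 3.36 and 0.927 with LPS. Each of the 3 LPS libraries lay at no more than 3 reads in every region of the gene. The value with LPS was therefore at least 356-fold lower (limma adjusted p = 7.14e-06). Both large regions went to 1 read in all LPS libraries: the 12511 bp region that holds the printed promoter (chromosome 7, 99701501 to 99714011) had 1352, 1075 and 746 untreated, and the 27478 bp region over the gene body (chromosome 7, 99659423 to 99686900) had 2282, 2096 and 1221.

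Slco3a1, an organic anion and prostaglandin carrier gene, read 641, 945 and 350.4 untreated and 16156, 16947 and 3328 with LPS, and differed by 4.02 (SE 0.65, limma adjusted p = 0.000581). The LPS libraries all stood above the untreated ones, and replicate 3 was the lowest in both groups. Of its 13 tested regions 8 were higher and 1 was lower with LPS. The largest share of the sum came from a 66076 bp region 84570 bp outside the gene (chromosome 7, 74639350 to 74705425), which read 386, 591 and 0.419 untreated and 11052, 10189 and 1658 with LPS. Over the regions that overlap the gene body alone the difference was 3.59 (SE 0.51, limma adjusted p = 0.000283). Inside the gene, the region at chromosome 7, 74547889 to 74560204 read 117, 168 and 239 untreated and 1613, 1897 and 1176 with LPS (3.19, SE 0.36, limma adjusted p = 3.47e-05), with little spread among LPS libraries. The region at chromosome 7, 74520229 to 74534275 was at the floor untreated and at least 471-fold higher, while that at chromosome 7, 74340079 to 74341549 fell to the floor, at least 8.35-fold lower. Slco4a1, a carrier of organic anions and thyroid hormone, was not called with LPS (-0.56, 95% interval -1.31 to 0.18).

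**Figure D4:**
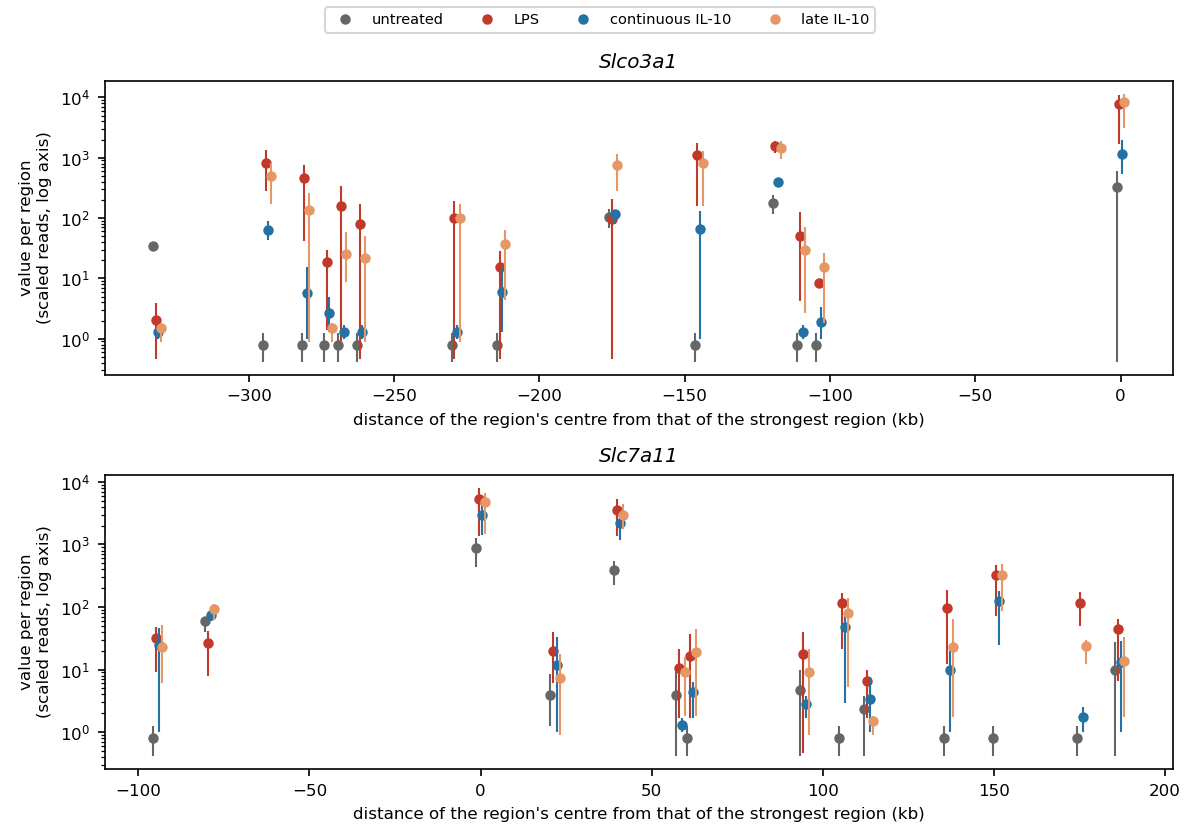
Values of the regions of Slco3a1 and Slc7a11 (scaled reads, log axis) against the distance of each region's centre from that of the gene's strongest region in kb. Dots are group means and lines run from the lowest to the highest of 3 libraries. At the strongest Slco3a1 region the LPS libraries reach 11052 and the continuous IL-10 libraries 1978.

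Replicate 3 stood apart at many of these genes. It was the lowest LPS library at 8 of the 12 genes higher with LPS and the highest at 7 of the 10 lower genes, so that its distance from the untreated values was the smallest of the LPS libraries there. It was also the LPS library with the most reads, 20884182 against 5149730 and 7242281, and the part of depth or of the pool in this was not tested.

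By position, 31.0% of the members' 58 tested regions outside the gene were higher with LPS and 19.0% were lower, beside 20.5% and 22.6% of all such regions of the series. Of 87 regions over the gene that hold no annotated start, 14.9% were higher and 26.4% lower, beside 16.5% and 20.3% of all. Of 29 regions that hold an annotated start, 8 were higher (27.6%, beside 10.7% of all) and 3 lower (10.3%, beside 8.99%). The median size of the difference was 1.03 at annotated starts, 1.97 in other gene regions and 2.86 outside the gene, and over all regions it was 0.66, 1.80 and 2.15, the same order. The differences between these shares were not tested.

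Levels per length of region allow only a rough comparison between genes. The length covers all regions of a gene, also those at the floor in a group or shared with another gene. In untreated cells the highest among the tested members was Slc16a6 with 167 per kb (158 to 182 over the libraries), followed by Slc43a2 with 156 per kb (130.1 to 202), whose ranges overlapped. Both lie in regions shared with another gene, Arsg and Pitpna. With LPS the 3 highest were Slc16a10 with 111 per kb (85.5 to 151), Slc2a6 with 109 (89.1 to 121) and Slc16a5, a member of the monocarboxylate family, with 105 (94.4 to 115). Among those below, Slc16a3 had 101 (49.9 to 160.2), Slc43a2 99.7 (70.8 to 144), Slc7a11 98.8 (30.4 to 148) and Slco3a1 84.9 (23.3 to 118). These 7 levels overlapped between libraries. In untreated cells the same quantity was 4.51 for Slco3a1 and 14.0 for Slc7a11, below 86.4 for Slc6a6, the highest member of its family by summed value. The lengths of Slco3a1 and Slc7a11 include regions at the floor in untreated cells, which lowers these levels.

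The next comparison asks what IL-10 given together with LPS did to the LPS values. With continuous IL-10, 4 transporter genes were higher than with LPS alone, where 2.6% of all genes tested were higher, and 3 were lower, where 3.2% of all genes were lower. They were 6.78% and 5.08% of the 59 tested members. Among regions, 6 were higher (3.45% of 174, beside 3.28% of all regions) and 6 lower (3.45%, beside 3.24%), which is close to the background of the same fit, without the replicate block. With the replicate block 6 genes were higher and 10 lower, and 14 regions were higher and 26 lower. With median centring the genes split into 4 higher and 1 lower, and in edgeR the regions into 3 higher and 7 lower. The median difference was 0.08 over the members and 0.03 over all genes. This comparison and the 2 others that use LPS alone share the LPS libraries, so their values are set side by side only.

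Slco2b1 was higher with continuous IL-10 than with LPS alone. It read 70.8, 82.6 and 341 with continuous IL-10 beside 3.94, 3.36 and 0.927 with LPS, at least 20.0-fold higher (limma adjusted p = 0.00317), and no library overlapped. Replicate 3 was the highest, and without it the bound was 9.33-fold. The values stayed below the 1967 of the lowest untreated library. The change was at the region of the printed promoter, with 69.1, 81.3 and 172 (SE 0.86, limma adjusted p = 0.00298), whereas the gene body region stayed at 1 read in replicates 1 and 2 and read 169 in replicate 3.

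Slc6a19 read 703, 459.8 and 683 with continuous IL-10 beside 189, 124 and 221 with LPS alone. It was 1.80 higher (SE 0.33, limma adjusted p = 0.00767), a call that held with each library left out. The region of its printed promoter was 3.16 higher (SE 0.88, limma adjusted p = 0.0496). That region's call was lost without any 1 of 4 libraries, LPS replicate 2 (where the difference was 2.01) and continuous IL-10 replicates 1, 2 and 3 (adjusted p up to 0.147), in edgeR (0.126) and with no filter on low values (0.0542). Slc2a9, the urate carrier, read 1170.2, 1129 and 965 beside 451, 440.3 and 527 (1.20, SE 0.25, limma adjusted p = 0.014), and its region at chromosome 5, 38499559 to 38511044 read 794, 747 and 591 beside 161, 129 and 217 (2.08, SE 0.37, limma adjusted p = 0.00553). The gene call was lost without any 1 of 4 libraries, replicates 1 and 2 of both groups (adjusted p up to 0.0715), while the region call held. These 3 genes were all lower with LPS than untreated.

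Slco4a1 read 2555, 1717 and 2097 with continuous IL-10 beside 608, 892 and 1069 with LPS, and was 1.33 higher (SE 0.35, limma adjusted p = 0.0401). The call ended without any 1 of the 5 compared libraries other than LPS replicate 3 (adjusted p up to 0.178) and over gene body regions alone (0.255), since the main region lies 4522 bp outside the gene (chromosome 2, 180428473 to 180451704). Slc7a7 had no gene-level call, but its region at chromosome 14, 54375662 to 54388769 read 59.0, 68.6 and 118 with continuous IL-10 beside 1.97, 1.68 and 30.6 with LPS (3.65, SE 0.93, limma adjusted p = 0.0342; up to 0.135 with 1 library left out and 0.0936 in edgeR).

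Slco3a1, Slc6a4 and Slc2a6 were lower with continuous IL-10. Slco3a1 read 2745, 1697 and 1064 beside 16156, 16947 and 3328 with LPS, a fall of 2.51 (SE 0.65, limma adjusted p = 0.0387) with no overlap between the groups. The call was lost without any 1 of the 5 compared libraries other than LPS replicate 3 (adjusted p up to 0.172), with median centring (0.152) and in edgeR (0.0801). With the block its adjusted p was 3.61e-05, and its inner region at chromosome 7, 74547889 to 74560204 fell to 376, 449.7 and 375, by 1.94 (SE 0.36, limma adjusted p = 0.00709), a call that held with each library left out. Slc2a6 read 852, 583 and 733 beside 1310.4, 1719 and 1775, a fall of 1.15 (SE 0.28, limma adjusted p = 0.028) that was lost without any 1 of 4 libraries, LPS replicates 1 and 2 and continuous IL-10 replicates 2 and 3 (up to 0.13), with median centring (0.0786) and in edgeR (0.0604). Slco3a1 and Slc2a6 were both higher with LPS than untreated. Slc6a4, the serotonin carrier gene, read 57.3, 260.4 and 289.8 beside 1045, 1033 and 718, a fall of 2.49 (SE 0.50, limma adjusted p = 0.0124) that was not called without LPS replicate 1 or 2 (adjusted p up to 0.0603). Its LPS difference from untreated, 1.02, was not called (limma adjusted p = 0.156).

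At Slc7a11 the gene sum with continuous IL-10 was 8218, 5444 and 2718, overlapping the LPS values (-0.66, limma adjusted p = 0.711). Of its 13 tested regions 1 was lower, that 74105 bp outside the gene (chromosome 3, 50573192 to 50577707). It read 120.0, 176 and 49.2 with LPS and 1.69, 2.54 and 0.986 with continuous IL-10, where all libraries were at the floor, at least 29.2-fold lower (limma adjusted p = 0.00203, up to 0.0123 with 1 library left out). With late IL-10 it read 29.9, 28.7 and 12.4, between the ranges of these 2 groups, and that difference from LPS was not called. A region 33749 bp from Slc38a2 (chromosome 15, 96733477 to 96738551) read 1.69, 19.1 and 10.8 with continuous IL-10 beside 175, 171 and 43.6 with LPS (-3.68, SE 0.88, limma adjusted p = 0.0265; up to 0.11 with 1 library left out). Another, 32301 bp from Slc38a11 (chromosome 2, 65277979 to 65281362), read 33.7, 1.27 and 0.986 beside 305, 402 and 32.9 (-4.90, SE 1.35, limma adjusted p = 0.0463), and its groups overlapped. This call was lost with 1 library left out (adjusted p up to 0.177), in edgeR (0.0887), with a pseudocount of 10 (0.0543) and with no filter (0.0507).

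Late IL-10, present for the last 30 min, was compared with LPS alone in the same way. With late IL-10, 1 transporter gene was higher (1.69% of 59, where 3.19% of all genes tested were higher) and 1 was lower (1.69%, where 0.26% of all genes were lower). Among regions, 3 of 174 were higher (1.72%, beside 3.14% of all regions) and 1 was lower (0.575%, beside 0.396%). With the replicate block, 4 genes were higher and 7 lower and 10 regions went each way. The genes split into 3 higher and 1 lower with median centring and 2 and 1 in edgeR, with Slc16a6 added as higher in both and Slc1a5 with centring. The median difference was -0.14 over the members and -0.16 over all genes.

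Slc38a7, which encodes a lysosomal glutamine exporter, was the gene called higher. Its single region lies at its annotated start (chromosome 8, 95847469 to 95854196) and read 259.7, 198 and 224 with LPS and 630.5, 770.4 and 564 with late IL-10, with no overlap. The difference was 1.52 (SE 0.31, limma adjusted p = 0.0122), and it was not called without LPS replicate 2 or late IL-10 replicate 1 or 2 (adjusted p up to 0.0833). Continuous IL-10 gave 422, 382 and 383, also above all LPS libraries, with no call (0.80, limma adjusted p = 0.157). Slc7a15 was the gene called lower: it read 549, 509 and 546 with late IL-10 beside 1407, 1497 and 1335 with LPS, a fall of 1.40 (SE 0.23, limma adjusted p = 0.00307), in the region shared with Rhob. This call held with each of the 6 libraries left out (up to 0.0215).

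Slc16a4 stood just outside the threshold at gene level, with 312, 324 and 230.3 with late IL-10 beside 45.3, 31.9 and 32.5 with LPS (2.95, limma adjusted p = 0.0502, or 0.00851 with the block and 0.00675 with a pseudocount of 10). The region at its annotated start (chromosome 3, 107286043 to 107291626) was called: it read no more than 25.04 with LPS, 43.8, 77.5 and 92.6 with continuous and 285, 308 and 215 with late IL-10, and the late difference was 4.56 (SE 0.90, limma adjusted p = 0.0112). That call ended without late IL-10 replicate 1 or 2 (adjusted p up to 0.0552). LPS replicate 2 was at 1 read in this region, so the size of the late difference depends on the floor. A region over Slc2a3 (chromosome 6, 122741553 to 122743104) read 61.6, 131 and 40.7 with late IL-10 and was at the floor with LPS, at least 18.9-fold higher (limma adjusted p = 0.00858, up to 0.046 with 1 library left out). Without late IL-10 replicate 2 the bound was 12.4-fold. It was also at the floor with continuous IL-10, and read 18.4, 5.04 and 0.419 untreated.

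Further genes were not called but passed with the replicate block. Slc16a6 read 315, 667 and 1287 with continuous and 657, 689.8 and 980.5 with late IL-10, 1.21 and 1.44 above LPS (limma adjusted p = 0.138 and 0.111, or 0.00917 and 0.00399 with the block). Its late difference also passed with median centring (0.0294), in edgeR (0.0489) and without LPS replicate 3 (0.0498), and its continuous difference when either LPS replicate 3 (0.0469) or the first continuous IL-10 replicate (0.0343) was left out. Slc1a5 read 234, 378 and 244 with late IL-10 beside 33.4, 73.9 and 193 with LPS (1.82, limma adjusted p = 0.143, or 0.0136 with the block, 0.0311 with median centring and 0.0127 without LPS replicate 3). Slc38a2 was -0.84 with continuous and -0.89 with late IL-10 against LPS (limma adjusted p = 0.142 and 0.175, or 0.0151 and 0.0155 with the block), and the continuous difference also passed in edgeR (0.0389). Slc6a20a was -1.49 with continuous IL-10 against LPS (limma adjusted p = 0.0948, or 0.00751 with the block).

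The last comparison set the 2 IL-10 schedules against each other. With late IL-10, 2 transporter genes were higher than with continuous IL-10 (3.39% of 59, where 1.88% of all genes tested were higher) and 2 were lower (3.39%, where 0.668% of all genes were lower). Among regions, 3 were higher (1.72% of 174, beside 1.86% of all regions) and 6 lower (3.45%, beside 0.852%). With the replicate block, 7 genes were higher and 8 lower, and 14 regions went each way. With median centring and in edgeR the genes split into 0 higher and 2 lower, Slc43a2 and Slc38a1, and in edgeR the regions into 3 and 3. The median difference was -0.18 over the members and -0.12 over all genes.

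Slco3a1 read 16139, 15912 and 4659 with late IL-10 and 2745, 1697 and 1064 with continuous IL-10, and was 2.64 higher (SE 0.65, limma adjusted p = 0.0498). Slc2a6 read 1883, 2044 and 1358 with late and 852, 583 and 733 with continuous IL-10, and was 1.28 higher (SE 0.28, limma adjusted p = 0.0341). In neither gene did the groups overlap, and neither differed from LPS alone with late IL-10 by a called amount (0.13, 95% interval -1.26 to 1.53, and 0.13, 95% interval -0.47 to 0.73). Slc43a2 read 3503, 3601 and 6039 with late and 9373, 9594 and 11336 with continuous IL-10 and differed by -1.25 (SE 0.29, limma adjusted p = 0.0442). It has 1 tested region, of 73507 bp, which also covers part of Pitpna (chromosome 11, 75527806 to 75601312). Tested as a region, the same values were no longer called with median centring (limma adjusted p = 0.0711) or in edgeR (0.0547), although the gene was. Slc2a9 read 532, 505 and 521 with late and 1170.2, 1129 and 965 with continuous IL-10 and differed by -1.06 (SE 0.25, limma adjusted p = 0.0434). All 4 calls ended without any 1 of the 5 compared libraries other than late IL-10 replicate 3, with adjusted p up to 0.256, 0.193, 0.241 and 0.196. Libraries of the other groups also mattered. Without untreated replicate 1 or 2 or LPS replicate 1, 1 gene was higher and 0 were lower, and without LPS replicate 2 there were 0 each way. Without untreated replicate 3 the counts were 1 higher and 2 lower, and without LPS replicate 3 they were 3 and 6. In edgeR, Slco3a1 (0.106), Slc2a6 (0.0543) and Slc2a9 (0.0556) did not pass, nor did they with median centring (0.13, 0.0599 and 0.0596). Slco3a1 was also lost with no filter on low values (0.0579).

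Slco2b1 read 17.6, 3.58 and 25.7 with late and 70.8, 82.6 and 341 with continuous IL-10, with no overlap (-3.27, limma adjusted p = 0.0537, or 0.00692 with the block, 0.0425 with a pseudocount of 10 and 0.0237 without late IL-10 replicate 3). Among regions, that over Slc7a7 (chromosome 14, 54375662 to 54388769) was at the floor with late IL-10 and at least 18.5-fold lower than with continuous IL-10 (limma adjusted p = 0.0167). A region over Slc16a10 (chromosome 10, 40050178 to 40062884) read 5.28, 32.3 and 111 with late and 243, 348 and 302 with continuous IL-10 (-3.37, SE 0.81, limma adjusted p = 0.0454). A region 9782 bp from Slc38a1 (chromosome 15, 96653220 to 96656238) read 1.76, 1.79 and 4.43 and 50.6, 86.4 and 48.3 (-4.12, SE 0.78, limma adjusted p = 0.0173). None of these 3 region calls held with every library left out (adjusted p up to 0.0793, 0.151 and 0.0884), and that at Slc16a10 did not pass in edgeR (0.102).

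Of the 59 tested members, 33 were called at gene level in no comparison by limma with group as the only term. Among them were Slc7a5, Slc1a5, Slc1a3, Slc38a2, Slc6a6, Slc7a8, Slc2a8, Slc16a1 and Slc16a3, some of which had called regions. Of these, Slc1a5, Slc38a2, Slc7a8, Slc2a8 and Slc16a3 passed at gene level in some comparison under another setting named above. With LPS the differences of the 37 genes not called ran from -4.08 (Slc2a8) to 2.47 (Slco5a1), and 9 of them had an unadjusted p under 0.05. For continuous IL-10 against LPS the 52 not called ran from -3.51 (Slc6a21) to 1.72 (Slc6a20b), for late IL-10 against LPS the 57 ran from -3.24 (Slc16a11) to 2.95 (Slc16a4), and between the schedules the 55 ran from -3.27 (Slco2b1) to 3.18 (Slc16a9). The members not tested at gene level held regions called with LPS at Slc6a15 and Slc38a3, which were higher, and at Slc1a7, Slc6a11 and Slc2a12, which were lower.

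Genes that work with these carriers were read from fixed lists. Of all genes tested, 14.2% were higher and 13.3% lower with LPS. Against LPS alone, 2.6% were higher with continuous and 3.19% with late IL-10. Of 4 partner subunits and chaperones, 3 had a region and Emb, the chaperone of monocarboxylate carriers, was called. It fell by 2.38 with LPS (limma adjusted p = 2.92e-05) and was 1.41 higher with continuous and 1.31 higher with late IL-10 than with LPS alone (limma adjusted p = 0.00645 and 0.00884). The left-out family members Slc2a1, the main glucose carrier, and Slc7a2, an arginine carrier, were both higher with LPS, by 1.20 and 5.85 (limma adjusted p = 0.00893 and 0.000125).

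Of 22 other nutrient, peptide, lysosomal and vitamin transporter genes, 1 was higher and 7 were lower with LPS, with a list median of -0.85 beside the -0.11 of all genes. Of all genes tested, 14.2% were higher and 13.3% lower, and the difference from these shares was not tested. Slc15a3, a lysosomal peptide and histidine carrier, was 1.23 higher. The lower genes were Ctns, the lysosomal cystine exporter (-1.75), Slc15a4 (-0.81), Slc27a1 (-1.15), Slc36a1 (-0.90), Slc36a2 (-1.06), Slc37a2 (-2.14) and Slc46a3 (-4.22). Slc36a2, a small amino acid carrier, was then 1.16 and 1.05 higher with continuous and late IL-10 than with LPS alone.

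Of 14 genes of the amino acid shortage and antioxidant responses, which include known regulators and partners of Slc7a11, 3 were higher and 1 was lower with LPS, with a median of -0.26. Beside these stand the 14.2% higher and 13.3% lower of all genes tested. The higher genes were Asns, asparagine synthetase (1.64), Gsr, glutathione reductase (1.42), and Txnrd1, thioredoxin reductase (1.29), and the lower one was Sesn2 (-2.17). Of 7 tested genes of amino acid sensing at the lysosome, Rptor (-1.73) and Rragc (-1.73) were lower with LPS.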

How the data were processed

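The values used are signal values, 1 per library and consensus region (40691 regions, mm10), as the authors deposited them. Trim Galore, Bowtie2, MACS2 and DiffBind are named in the submitters' processing notes; not given in the sources used here are their roles, order and versions, and whether background or input was subtracted. Within a tolerance of 0.0001 reads, 100% of the deposited signal values were whole multiples of the library's smallest value, so whole reads were recovered. The input library was not used here.

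Regions were assigned to every overlapping protein-coding gene (RefSeq, GRCm38.p6), otherwise to the nearest within 100 kb, and summed per gene. After the lowest 10% by mean log2(value + 1) were set aside, 13479 genes and 36621 regions were tested in limma 3.58.1 (trend, robust; R 4.3.3) over all 12 libraries with group as the only term, and p-values were adjusted over all of them by the method of Benjamini and Hochberg. The scripts were tested on simulated data. A group was taken as at the floor where no library had more than 3 reads in any region of the gene. Folds against it were computed against 3 reads per region and library. They are lower bounds on the deposited values, for counting error only. If background was subtracted before deposit, they do not bound the change in H3K27ac itself. The members and gene lists were chosen with earlier results of these data known. Genes were named if on a list of 18 transporters, if among the 8 called genes with the largest change per direction and comparison, or if highest in their family, and regions if among the 6 largest per direction and comparison or part of a named gene. Other regions and genes given here, among them Slc16a4 and the block results, were chosen after their values were seen.

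The alternatives were a pseudocount of 10, no filter, median centring, the replicate number as a block, edgeR 4.0.16 (quasi-likelihood, TMM) on recovered reads, gene body regions only, and leaving out each library. On recovered reads edgeR called 11 transporter genes higher and 13 lower with LPS. Replicate numbers pair the libraries: the labels name 3 pools, and in all 12 pairs of same-numbered libraries in compared groups the deviations from the group means correlated (0.149 to 0.712); 11 of 12 libraries correlated best with their own number. The main fit did not use this pairing, so its calls, its intervals and its statements of genes not called leave it out. With the block every count of called members and regions was higher than in the main fit. With 3 libraries a group, p-values measure the spread between these pools.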

Additional observations from a re-analysis of the deposited data

How the results depend on the processing

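No called result reversed under any alternative. Over the 71 called gene and region results named in the text, 71 remained called with the replicate block, 69 with a pseudocount of 10, 67 without a filter, 61 with median centring and 57 in edgeR, and leaving out 1 of the 12 libraries at a time kept the call in 669 cases and lost it in 177. The cause was not tested.

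With the replicate block, 17 genes were lower with LPS, 10 genes lower, 14 regions higher and 26 regions lower with continuous IL-10 than with LPS, 4 genes higher, 7 lower and 10 regions each way with late IL-10 than with LPS, and 7 genes higher, 8 lower and 14 regions each way with late than with continuous IL-10. The block changed no other count by over 1.5 times. For none of the alternatives was the share over all genes or regions computed. With gene body regions only, 7 genes were higher with LPS, where fewer regions and genes were tested. With a pseudocount of 10, 10 regions were lower with continuous IL-10, 2 genes and 5 regions were higher and 2 regions lower with late IL-10 than with LPS, and 5 regions were higher with late than with continuous IL-10. Without a filter 1 gene was higher with late than with continuous IL-10. With median centring 1 gene was lower with continuous IL-10, 3 were higher with late IL-10 than with LPS, and 0 were higher with late than with continuous IL-10. In edgeR 3 regions were higher with continuous IL-10, 2 genes were higher with late IL-10 than with LPS, and 0 genes were higher and 3 regions lower with late than with continuous IL-10.

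With 1 library left out, the genes lower with LPS numbered 9 to 18 and the regions lower with LPS 22 to 44, the lowest without untreated replicate 1. With continuous IL-10 against LPS, the counts were 2 to 5 genes higher, 0 to 5 lower, 2 to 8 regions higher and 2 to 18 lower. The 0 came without LPS replicate 1 or 2 and the 18 without LPS replicate 3. With late IL-10 against LPS, they were 0 to 4 genes higher, 1 to 2 lower, 1 to 5 regions higher and 1 to 2 lower. Between the schedules they were 0 to 3 genes higher, 0 to 6 lower, 0 to 9 regions higher and 0 to 11 lower. Depth limits what can be said of regions near the floor, which at a median of 18 to 89 reads per region hold many of the weaker values.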
